A study of Mus musculus with 8 samples.

Results

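The 35 genes described here are immediate early genes, chosen by name from the 20377 gene symbols of the deposited tables: Fos, Fosb, Fosl1, Fosl2, Jun, Junb, Jund, Egr1, Egr2, Egr3, Ier2, Ier3, Ier5, Atf3, Nr4a1, Nr4a2, Nr4a3, Klf2, Klf4, Klf6, Klf10, Dusp1, Dusp5, Dusp6, Btg2, Zfp36, Gadd45a, Gadd45b, Myc, Socs3, Cebpb, Cebpd, Rhob, Ppp1r15a and Maff. All 35 were found, and all 35 passed the filter on low counts. They were measured by RNA sequencing in bile duct cells of wild-type C57BL/6 mice, whose age and sex the labels do not give. Liver cells other than hepatocytes were sorted for binding of the duct antibody MIC1-1C3, for absence of CD26 and of blood cell markers, and then for the level of ST14 (matriptase, a membrane serine protease of epithelia). ST14high and ST14low each had 4 libraries, replicates 1 to 4, made from RNA of cells that went from the sorter straight into TRIzol. The labels do not say whether the replicates came from separate animals, so the p-values below reflect the spread among these libraries alone, and part of that spread may be technical.

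Immediate early genes are transcribed within minutes of a stimulus, without new protein synthesis, when MAP kinase signals activate factors that already sit on their promoters, among them SRF with its ternary complex partners and CREB. Most of their products are transcription factors or feedback inhibitors of the same signals, and many of their RNAs decay quickly. Enzymatic dissociation of a tissue and cell sorting are themselves known to induce them. All 8 libraries came from dissociated and sorted cells, so induction by isolation was not tested here, and only levels and differences between the 2 sorted populations can be given.

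Totals were 6398307 to 42769988 counts per library, lowest in ST14low replicate 3. The surface sort on ST14 was not mirrored in St14 RNA, with a mean of 305 ± 32.5 CPM among ST14high libraries against 329.9 ± 49.0 CPM among ST14low libraries (SD, n = 4; CPM are counts scaled to the same library size, with TMM factors). The 8 duct cell markers (Epcam, Sox9, Krt19, Krt7, Spp1, Cftr, Cldn7 and Sctr) were detected in every library and their sum was 11755 CPM for ST14high replicate 1 against 16889 to 23613 CPM for the other 7 libraries, although 2 of the 8 were highest in it. ST14high replicate 1 also stood apart in its pancreatic acinar markers, with a sum of 9415 CPM there; ST14high replicate 2 reached 1417 CPM and no other library exceeded 103 CPM. Of these 12 markers, 11 were highest in it and Prss1 was at 0 in all libraries. Its 14 mesothelial and mesenchymal markers summed to 3457 CPM, and 13 of them were highest in it. The sum was 884 to 1158 CPM in the other ST14high libraries and 392 to 747 CPM in ST14low. Its hepatocyte markers summed to 4945 CPM, the lowest of the 8 libraries (7954 to 14434 CPM in the rest), and leukocyte markers did not exceed 28.4 CPM in any. Results below are therefore given with and without that library. Leaving it out does not make the populations alike in marker sums. Mesothelial sums stay higher in ST14high, and macrophage sums were 243 to 350 CPM in ST14high replicates 2 to 4 against 381 to 1026 CPM in ST14low. The part of these sums in differences between the populations was not tested.

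Immediate early transcripts were abundant in both populations. They took up 3.84%, 2.3%, 2.09% and 2.17% of all counts in ST14high replicates 1 to 4, and 3.0%, 3.37%, 2.12% and 2.66% in ST14low replicates 1 to 4. Egr1, Jun and Fos alone made up 0.987% to 1.37% of counts. ST14high replicate 1 had the highest share. The other ST14high libraries lay close together, and 3 of the 4 ST14low libraries were above them.

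Levels of different genes were compared per transcript length, as the RPKM that the authors deposited. Egr1, a zinc finger factor that the MAP kinase ERK induces through SRF, was highest, with a median over the 8 libraries of 1890.0 RPKM (range 1661 to 2161), rank 7 of the 13749 genes tested. Fos followed at 1168 RPKM (836 to 2112) and Jun at 1022 RPKM (858 to 1563). Egr1 exceeded Fos in 7 of 8 libraries, Fos exceeded Jun in only 5, and Jun exceeded Junb, next at 875 RPKM, in all 8. Then came Atf3 (815 RPKM), Dusp1 (649), Ier2 (634), Zfp36 (613), Rhob (432), Btg2 (379) and Fosb (356), all at rank 98 or better among the genes tested. From Junb down to Fosb, each gene exceeded the next in only 4 to 7 of the 8 libraries, so this order is loose. A middle group, from Nr4a1 at 242 RPKM to Jund at 143 RPKM, also held Klf6, Ier3, Dusp6 and Ppp1r15a.

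The lower part of the order ran from Gadd45b, at 93.4 RPKM, through Maff, Myc, Gadd45a, Socs3, Dusp5, Egr2 and Klf10 (35.1 RPKM) to Fosl2, Ier5, Klf4, Klf2 and Cebpb (13 RPKM). Egr3, Cebpd, Fosl1, Nr4a2 and Nr4a3 were lowest, with medians of 4.93, 4.71, 1.79, 0.925 and 0.79 RPKM. Families were thus unequal: Egr1 stood far above Egr2 (40.1 RPKM) and Egr3, Nr4a1 above Nr4a2 and Nr4a3, and Fos and Fosb above Fosl2 (21.3 RPKM) and Fosl1. In each family the lowest library of the first-named gene exceeded the highest library of the last-named. Of the 34 neighbouring pairs in the order, the upper gene exceeded the lower in all 8 libraries for only 4: Jun over Junb, Jund over Gadd45b, Klf10 over Fosl2 and Cebpb over Egr3.

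**Figure D1:**
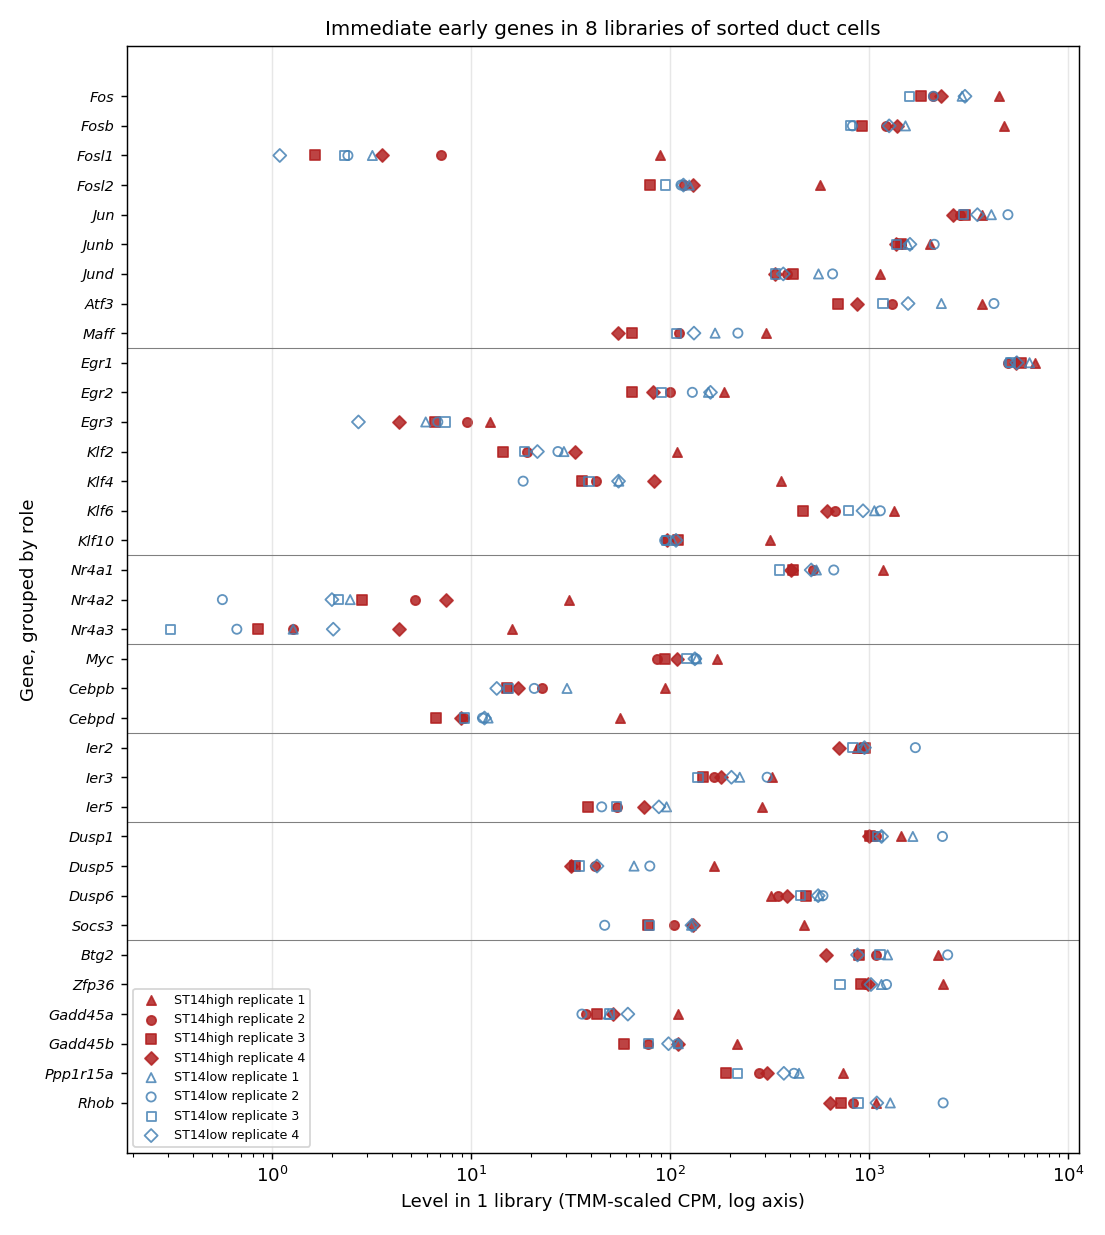
Level of each immediate early gene in each of the 8 libraries, in TMM-scaled CPM on a log axis, 1 gene per row and 1 point per library, with lines between groups of related function. The triangle of ST14high replicate 1 is the rightmost point in 27 of 35 rows, and filled (ST14high) and open (ST14low) points overlap in every row except Nr4a2.

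Between the populations, edgeR's quasi-likelihood test over all 13749 genes called 0 of the 35 genes at an adjusted p under 0.05 (0% of all genes were called in either direction), and the smallest adjusted p among them was 0.31, for Nr4a2. Unadjusted, 4 genes had p under 0.05 with higher values in ST14high (Fosl1, Klf4, Nr4a2 and Nr4a3), where 6.89% of all genes met that criterion, and 2 with lower values (Dusp6 and Rhob), where 2.68% did. Limma's voom test called 0 (0% of all genes); unadjusted, it had 2 of the 35 higher, Egr3 and Nr4a2, at p under 0.05 (6.69% of all genes), and 3 lower, Klf6, Myc and Dusp6 (4.74%). DESeq2's Wald test gave an adjusted p to 32 of the 35 and called 1, Nr4a2, higher in ST14high, where it called 1.62% of all genes higher and 0.103% lower. DESeq2 gave none to Fosl1, Cebpb and Cebpd. The fold change was above 0 in 22 genes and below 0 in 13, against 50.3% above and 49.7% below over all genes, and the median log2 fold change (ST14high over ST14low) was 0.24 for the 35 genes and 0.0023 for all genes tested. In voom, which gives less weight to libraries that vary more, the split was the opposite, 13 above and 22 below 0 (47.2% and 52.8% of all genes), with a median of -0.066.

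That direction rested on 1 library. ST14high replicate 1 held the highest value of the 8 libraries in 27 of the 35 genes, where it was highest in 23.0% of all genes tested. In 23 genes its value was more than 2 times the median of the other 7 libraries, against 13.4% of all genes, and the median ratio was 2.39 for the 35 genes and 0.988 for all genes. The ratio was largest for Fosl1, at 37.2, and lay below 1 only for Ier2 (0.93) and Dusp6 (0.666). Without that library, 8 genes had a fold change above 0 and 27 below 0 (47.8% and 52.2% of all genes), 14 genes had changed sign, and the median was -0.28, against -0.015 for all genes. In edgeR 0 of 35 then passed over all genes (0% of genes in either direction, smallest adjusted p 0.212). Unadjusted, 10 had p under 0.05 with lower values (Jun, Atf3, Maff, Egr2, Klf6, Myc, Dusp1, Dusp5, Dusp6 and Rhob), where 3.65% of all genes met it, and 1 with higher values, Nr4a2, where 6.05% did. DESeq2 without that library called 3 lower (Klf6, Maff and Myc), where it called 0.592% of all genes lower, and 0 higher, where it called 1.45%. The acinar, mesothelial and duct marker sums given above move with this library, and their part in its immediate early values was not tested. In such bulk samples a smaller share of a cell type and less RNA per cell cannot be told apart.

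**Figure D2:**
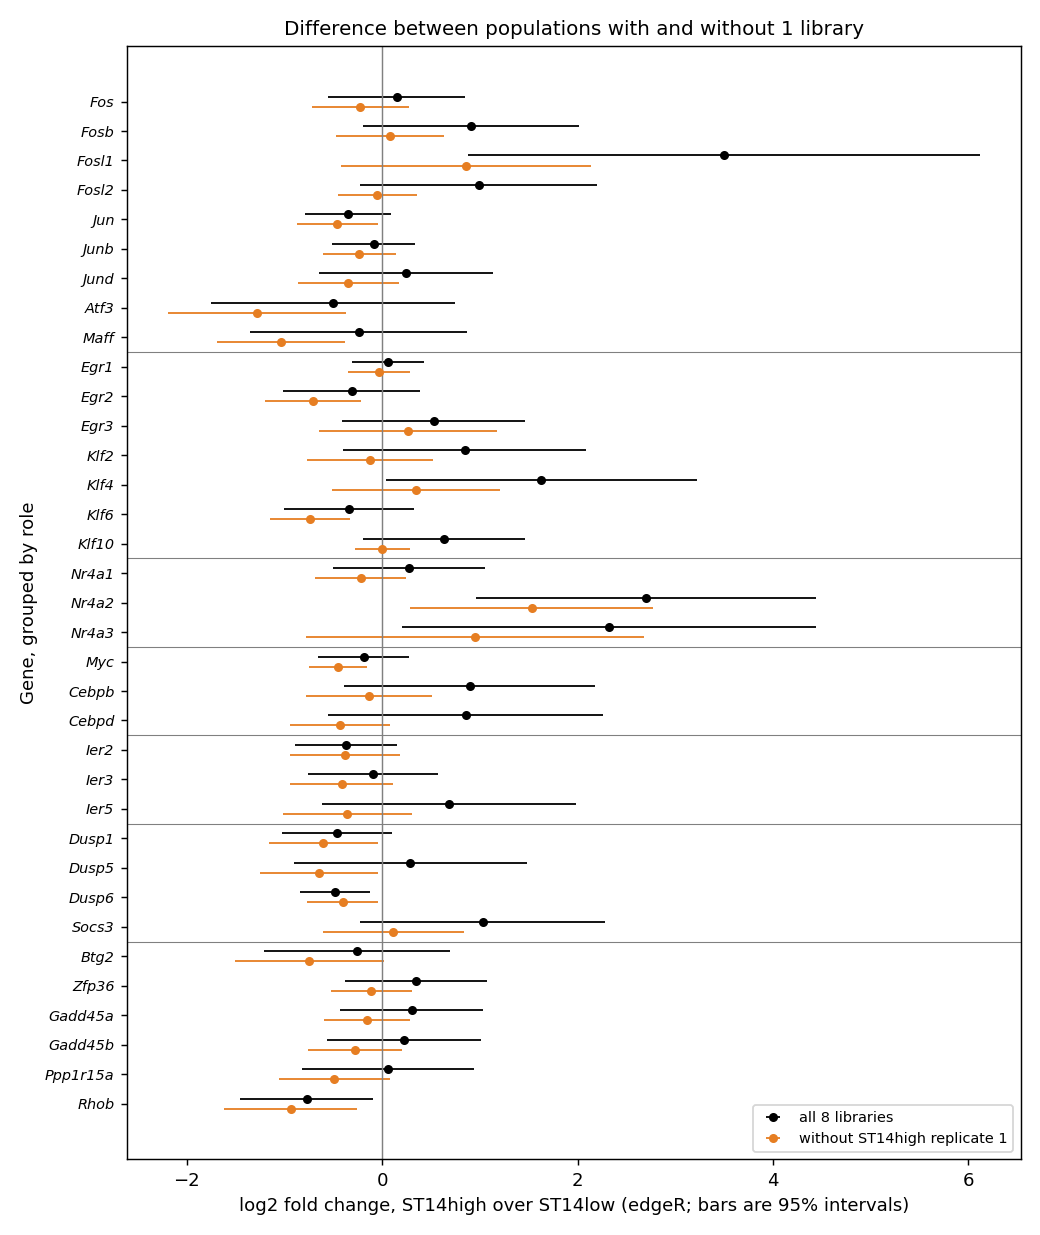
Log2 fold change of each gene, ST14high over ST14low, from edgeR with 95% intervals, for all 8 libraries (black) and without ST14high replicate 1 (orange). Most orange points lie to the left of the black ones, and 27 of 35 are below 0 where 13 of 35 black points are; Nr4a2 stays to the right of 0 in both.

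The AP-1 family held the genes ranked 2 to 5 per length. Its Fos, Jun and ATF/MAF members pair through leucine zippers and bind DNA as pairs. Fos was at 4503, 2097, 1830.4 and 2305 CPM in ST14high replicates 1 to 4 and at 2939.6, 2108, 1602 and 3038 CPM in ST14low replicates 1 to 4. The populations overlapped, and the log2 fold change was 0.15 (SE 0.32, edgeR adjusted p = 0.898), or -0.22 without ST14high replicate 1. Fosb was at 4775, 1221, 918 and 1377 CPM in ST14high replicates 1 to 4 and at 1526, 826, 808 and 1263 CPM in ST14low replicates 1 to 4. Apart from ST14high replicate 1, at 3.91 times the median of the others, Fosb differed little between populations; its log2 fold change went from 0.91 to 0.083 when that library was left out.

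Fosl2 and Fosl1, Fos relatives without the strong transactivation domain of Fos and typical of later phases of the response, stood out, like Fosb, in ST14high replicate 1. Fosl2 was at 567, 117, 79.6 and 130.5 CPM in ST14high replicates 1 to 4 and at 125, 114, 94.6 and 117 CPM in ST14low replicates 1 to 4. Only ST14high replicate 1 stood out, and the log2 fold change of 0.99 (SE 0.54, edgeR adjusted p = 0.584) was -0.048 without it. Fosl1 was at 89.6, 7.08, 1.65 and 3.56 CPM in ST14high replicates 1 to 4 and at 3.2, 2.41, 2.31 and 1.09 CPM in ST14low replicates 1 to 4. Fosl1 had the fold change farthest from 0 of the 35 genes, 3.50 (SE 1.17, edgeR adjusted p = 0.396), carried by 1 library, and 0.86 (SE 0.57, edgeR adjusted p = 0.637) without it.

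Of the genes for Jun proteins, partners of Fos that also pair with each other, Jun and Junb showed another order of libraries. Jun was at 3714, 2874, 3033 and 2637 CPM in ST14high replicates 1 to 4 and at 4123, 4993, 2995 and 3509 CPM in ST14low replicates 1 to 4. ST14low replicate 2 was highest and ST14high replicate 4 lowest, and the log2 fold change was -0.35 (SE 0.20, edgeR adjusted p = 0.597), or -0.46 (SE 0.18, edgeR adjusted p = 0.487) without ST14high replicate 1. Junb lay between 1363 and 2128 CPM in the 8 libraries with the same 2 libraries at the ends, a log2 fold change of -0.088 (SE 0.19, edgeR adjusted p = 0.902) that was 0.034 without ST14low replicate 2. Jund, a Jun protein present in unstimulated cells, was at 1141 CPM in ST14high replicate 1 and at 338 to 656 CPM in the other 7.

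Atf3, a stress-induced partner of Jun, had the largest SD of log2 CPM of the set in ST14low, 0.801, with 0.5 CPM added to each value. That addition lowers the SD of scarce genes, and without it Nr4a3 would spread more than Atf3. Atf3 was at 3692, 1300.5, 702 and 869 CPM in ST14high replicates 1 to 4 and at 2311, 4247, 1175 and 1572 CPM in ST14low replicates 1 to 4. ST14low replicate 2 was highest and ST14high replicate 1 next, while ST14high replicates 3 and 4 were lowest. The log2 fold change was -0.50 (SE 0.56, edgeR adjusted p = 0.779), and -1.28 (SE 0.41, edgeR adjusted p = 0.349) without ST14high replicate 1, when only ST14low replicate 3, at 1175 CPM, and ST14high replicate 2, at 1300.5 CPM, crossed. Maff, a small MAF protein, had a like pattern. Maff was at 303, 111, 64.7 and 55 CPM in ST14high replicates 1 to 4 and at 169, 219, 108 and 132 CPM in ST14low replicates 1 to 4. Its log2 fold change was -0.24 (SE 0.50, edgeR adjusted p = 0.894) with all libraries and -1.04 (SE 0.29, edgeR adjusted p = 0.279) without ST14high replicate 1, where DESeq2 called it (adjusted p = 0.0222) although ST14high replicate 2 and ST14low replicate 3 still overlapped.

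Among the zinc finger factors, Egr1 varied least over the 8 libraries. Egr1 was at 6852, 4989, 5807 and 5473 CPM in ST14high replicates 1 to 4 and at 6412, 5050.4, 5143 and 5532 CPM in ST14low replicates 1 to 4. The populations overlapped, and the log2 fold change was 0.063 with a 95% interval from -0.31 to 0.43 (edgeR adjusted p = 0.92). Egr2 was at 186, 99.8, 64.8 and 82.2 CPM in ST14high replicates 1 to 4 and at 156, 129.6, 90.7 and 159.8 CPM in ST14low replicates 1 to 4. Egr2 had a log2 fold change of -0.31 (SE 0.32, edgeR adjusted p = 0.758), and -0.71 (SE 0.22, edgeR adjusted p = 0.339) without ST14high replicate 1, when ST14low replicate 3 was the only ST14low library below an ST14high one. Egr3 was scarce, at 2.72 to 12.4 CPM, and its log2 fold change was 0.53 (SE 0.42, edgeR adjusted p = 0.696).

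The KLF genes, which encode SP1-related zinc finger proteins, divided. Klf6 was at 1335, 678, 468 and 617 CPM in ST14high replicates 1 to 4 and at 1065, 1141, 788 and 934 CPM in ST14low replicates 1 to 4. Klf6 is known from activated stellate cells of the liver. With all libraries its log2 fold change was -0.34 (SE 0.30, edgeR adjusted p = 0.72), and without ST14high replicate 1 it was -0.74 (SE 0.18, edgeR adjusted p = 0.212), the smallest adjusted p of the set. Then all 3 ST14high libraries lay below all 4 ST14low libraries, as they did for 5 of the 35 genes (Klf6, Myc, Cebpd, Dusp1 and Rhob) and for 5.05% of all genes, and DESeq2 called the gene (adjusted p = 0.00511). Klf4 was at 361, 42.4, 36 and 82.7 CPM in ST14high replicates 1 to 4 and at 55.3, 18.3, 39.2 and 55.2 CPM in ST14low replicates 1 to 4. Klf4, a factor of epithelial differentiation, had a log2 fold change of 1.63 (SE 0.71, edgeR adjusted p = 0.511) that was 0.35 without that library. Klf2, a factor known from endothelium, was at 108 CPM in ST14high replicate 1 and 14.5 to 33.3 CPM elsewhere, and Klf10, a gene that TGF-beta induces, at 319 and 94.1 to 109 CPM. Endothelial markers summed to 1194 CPM in ST14high replicate 1, 966 and 1294 CPM in ST14low replicates 2 and 3 and 22 to 396 CPM in the others; their part in the Klf2 values was not tested.

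The NR4A genes encode orphan nuclear receptors that act without a known ligand and are classical targets of cyclic AMP signals through CREB. Nr4a2 was at 31.3, 5.25, 2.83 and 7.48 CPM in ST14high replicates 1 to 4 and at 2.47, 0.564, 2.16 and 2.0 CPM in ST14low replicates 1 to 4. Every ST14high library exceeded every ST14low library. Nr4a2 was the only gene of the 35 whose populations did not overlap, where 4.09% of all genes tested did not overlap with ST14high above and 2.33% with ST14high below, so 1 of 35 is no more than the background. Such a separation necessarily remains when a library is left out, and without ST14high replicate 1 the share of all genes with ST14high above was 6.74%. ST14low replicate 1, at 2.47 CPM, and ST14high replicate 3, at 2.83 CPM, came nearest to each other, and the gene (chromosome 2, 56959636 to 56967449 in mm9, minus strand) had only 1146 counts over all 8 libraries. Its log2 fold change was 2.70 (SE 0.78, edgeR adjusted p = 0.31), with a DESeq2 adjusted p of 0.0141. Without ST14high replicate 1 it was 1.53 (SE 0.56, edgeR adjusted p = 0.424), and DESeq2 then gave an adjusted p of 0.213, so the call was lost. DESeq2 was not run with any other library left out, so whether the call depends on that library alone was not tested.

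Nr4a3 resembled Nr4a2 only in part. Nr4a3 was at 16.1, 1.27, 0.85 and 4.33 CPM in ST14high replicates 1 to 4 and at 1.28, 0.666, 0.309 and 2.03 CPM in ST14low replicates 1 to 4. ST14high replicates 1 and 4 were the 2 highest, as for Nr4a2, and the others overlapped, with a log2 fold change of 2.32 (SE 0.95, edgeR adjusted p = 0.494) and 0.95 without ST14high replicate 1. Nr4a1 was at 1176, 521, 414 and 405 CPM in ST14high replicates 1 to 4 and at 544, 666, 356 and 513 CPM in ST14low replicates 1 to 4. Nr4a1, by far the most abundant of the 3, overlapped between the populations, with a log2 fold change of 0.27 (SE 0.35, edgeR adjusted p = 0.807) and -0.22 without ST14high replicate 1.

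The promoters of the 3 NR4A genes are shown because these genes share a regulator by textbook account yet did not share an order of libraries. Each sequence gives the 250 bases before the start site, 5′ to 3′, from RefSeq in the build GRCm38.p6: Nr4a1 chr15:101266596-101266845 (plus strand), Nr4a2 chr2:57124004-57124253 (minus strand) and Nr4a3 chr4:48045055-48045304 (plus strand). Capitals mark TGACG, the core of the cyclic AMP response element (CRE) that CREB binds, or its complement.
Nr4a1: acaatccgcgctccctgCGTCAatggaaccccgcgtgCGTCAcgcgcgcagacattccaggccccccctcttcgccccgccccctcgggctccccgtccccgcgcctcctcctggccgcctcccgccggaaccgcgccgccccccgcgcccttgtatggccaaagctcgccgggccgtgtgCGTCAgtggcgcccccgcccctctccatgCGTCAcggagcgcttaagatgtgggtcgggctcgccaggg
Nr4a2: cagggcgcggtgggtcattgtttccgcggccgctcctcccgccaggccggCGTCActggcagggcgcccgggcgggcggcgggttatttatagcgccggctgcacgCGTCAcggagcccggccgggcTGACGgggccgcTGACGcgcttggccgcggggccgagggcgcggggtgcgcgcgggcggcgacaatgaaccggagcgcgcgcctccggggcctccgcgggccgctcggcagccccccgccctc
Nr4a3: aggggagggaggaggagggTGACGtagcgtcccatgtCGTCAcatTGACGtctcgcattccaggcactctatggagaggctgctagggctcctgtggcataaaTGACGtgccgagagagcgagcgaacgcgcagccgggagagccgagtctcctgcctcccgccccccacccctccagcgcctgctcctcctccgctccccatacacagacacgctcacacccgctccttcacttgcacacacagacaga
Each window holds 4 of these cores, where TGACG was found, on either strand, in the window of 23.0% of the 27025 genes in the RefSeq table. A match of letters is a description and no evidence of binding.

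Myc and the C/EBP factors are regulators of growth and of the acute phase. Myc was at 173, 86.3, 94.2 and 109 CPM in ST14high replicates 1 to 4 and at 136, 135, 122 and 133 CPM in ST14low replicates 1 to 4. Without ST14high replicate 1, the 3 ST14high libraries lay below all 4 ST14low libraries, with a log2 fold change of -0.45 (SE 0.13, edgeR adjusted p = 0.306), which DESeq2 called (adjusted p = 0.0355); with it, the log2 fold change was -0.19 (SE 0.21, edgeR adjusted p = 0.775). Myc was also the steadiest of the 35 genes within ST14low, with an SD of log2 CPM of 0.0748. Cebpb was at 94.9 CPM in ST14high replicate 1 and 13.5 to 30.4 CPM in the rest, and Cebpd at 56.4 and 6.71 to 12.2 CPM. Leaving that library out took the log2 fold change from 0.90 to -0.13 for Cebpb and from 0.85 to -0.43 for Cebpd.

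The IER genes, named for their early response, did not move as 1 group. Ier2 was at 872, 898, 953 and 707 CPM in ST14high replicates 1 to 4 and at 937, 1711, 832 and 949 CPM in ST14low replicates 1 to 4. ST14low replicate 2 was far above the other 7, which were within 707 to 953 CPM, and the log2 fold change was -0.37 (SE 0.23, edgeR adjusted p = 0.63). Ier3, which limits apoptosis, lay between 138 and 327 CPM with ST14high replicate 1 and ST14low replicate 2 on top. Ier5 was at 291 CPM in ST14high replicate 1 and 38.7 to 96.1 CPM in the rest, and its log2 fold change of 0.69 was -0.35 without that library.

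Feedback inhibitors included the only gene with its lowest value in ST14high replicate 1. Dusp6 was at 322, 351, 483 and 389 CPM in ST14high replicates 1 to 4 and at 562, 587, 451 and 556 CPM in ST14low replicates 1 to 4. Dusp6, a cytoplasmic phosphatase that is specific for ERK and is itself induced by ERK signalling, had a log2 fold change of -0.48 (SE 0.16, edgeR adjusted p = 0.393), with a 95% interval from -0.84 to -0.12, and -0.40 (SE 0.16, edgeR adjusted p = 0.482) without ST14high replicate 1. Its populations overlapped only through ST14high replicate 3, at 483 CPM, and ST14low replicate 3, at 451 CPM. Dusp1 was at 1454, 1087, 1012 and 1000.3 CPM in ST14high replicates 1 to 4 and at 1662, 2341, 1111 and 1157 CPM in ST14low replicates 1 to 4. Dusp1, a nuclear phosphatase of p38 and JNK, was highest in ST14low replicate 2, with a log2 fold change of -0.46 (SE 0.25, edgeR adjusted p = 0.584) and -0.60 (SE 0.25, edgeR adjusted p = 0.49) without ST14high replicate 1. Then the populations no longer overlapped, by the margin between 1087 and 1111 CPM.

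Dusp5, a nuclear phosphatase of ERK, was at 167 CPM in ST14high replicate 1 and 32 to 79.2 CPM in the others, with ST14low replicates 2 and 1 next. Socs3 was at 471, 105, 77.3 and 130.4 CPM in ST14high replicates 1 to 4 and at 128, 47, 78.8 and 129 CPM in ST14low replicates 1 to 4. Socs3, the inhibitor of cytokine signals through STAT3, had a log2 fold change of 1.03 (SE 0.56, edgeR adjusted p = 0.584), and 0.12 without ST14high replicate 1, and its lowest value was that of ST14low replicate 2, where Dusp1, Dusp6 and Rhob were highest.

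The last group acts on RNA decay, stress and growth arrest. Rhob was at 1088, 836, 728 and 639 CPM in ST14high replicates 1 to 4 and at 1280.0, 2359, 882 and 1096 CPM in ST14low replicates 1 to 4. Rhob, a small GTPase of endosomes, was highest in ST14low replicate 2 and lowest in ST14high replicate 4, and had a log2 fold change of -0.77 (SE 0.30, edgeR adjusted p = 0.478), and -0.94 (SE 0.31, edgeR adjusted p = 0.37) without ST14high replicate 1. The 3 remaining ST14high libraries then lay below all ST14low libraries, and DESeq2's adjusted p was 0.0508. Btg2 was at 2231, 1081, 886 and 606 CPM in ST14high replicates 1 to 4 and at 1241, 2487, 1136 and 876 CPM in ST14low replicates 1 to 4. Btg2, an antiproliferative factor that promotes removal of poly(A) tails, had its 2 highest values in 1 library of each population, and the log2 fold change was -0.26 (SE 0.43, edgeR adjusted p = 0.863), and 0.13 without ST14low replicate 2.

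Zfp36 was at 2368, 963, 912 and 989 CPM in ST14high replicates 1 to 4 and at 1155, 1226, 716 and 1023 CPM in ST14low replicates 1 to 4. Zfp36 encodes tristetraprolin, which binds AU-rich elements of short-lived RNAs, and apart from ST14high replicate 1 its libraries lay between 716 and 1226 CPM in both populations, with a log2 fold change of 0.34 (SE 0.33, edgeR adjusted p = 0.743) and -0.11 without that library. Ppp1r15a, a subunit that directs a phosphatase to eIF2 alpha after stress, was at 743 CPM in ST14high replicate 1 and 191 to 445 CPM in the rest. The growth arrest genes Gadd45a and Gadd45b were at 109.6 and 217 CPM in that library, and at 36.1 to 61.4 and 58.6 to 110.1 CPM in the rest. Leaving it out took the log2 fold change from 0.062 to -0.49 for Ppp1r15a, from 0.30 to -0.15 for Gadd45a and from 0.22 to -0.28 for Gadd45b.

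Read across libraries, the 35 genes thus had different orders. ST14high replicate 1 was highest for 27 genes and ST14low replicate 2 for the other 8 (Jun, Junb, Atf3, Ier2, Dusp1, Dusp6, Btg2 and Rhob), where ST14low replicate 2 was highest in 23.0% of all genes. Among the 7 libraries other than ST14high replicate 1, ST14low replicate 2 was highest for 15 of the 35 genes, where it was highest in 26.3% of all genes. ST14low replicate 1 was then highest for 8 (11% of all genes). Over all 8 libraries, ST14low replicate 2 was lowest for 5 genes, Klf4, Klf10, Nr4a2, Socs3 and Gadd45a, where it was lowest in 22.2% of all genes. ST14high replicate 4 was lowest for 9 genes (16.9% of all genes), among them Jun, Junb, Jund, Dusp1 and Rhob. It was second highest, after ST14high replicate 1, for 6 others (Fosl2, Klf2, Klf4, Nr4a2, Nr4a3 and Socs3). Among those 7 libraries it was highest in 18.9% of all genes. ST14high replicate 3 was lowest for another 9 (13.6% of all genes), and ST14low replicate 1 for 0 (7.34% of all genes). Macrophage markers summed to 802 and 1026 CPM in ST14low replicates 2 and 3 and 243 to 459 CPM in the others, and endothelial markers were high in the same 2 libraries and in ST14high replicate 1. ST14low replicate 3 had the largest of both sums and was highest for 0 of the 35 genes (13% of all genes). Hepatocyte markers summed to 14434 CPM in ST14low replicate 2 and 4945 to 12527 CPM in the others, and 7 of these 10 markers were highest in ST14low replicate 2. The part of these marker sums in the orders was not tested. Within ST14low the median SD of log2 CPM was 0.455 for the 35 genes and 0.289 for all genes tested, and within ST14high without replicate 1 it was 0.278 and 0.211.

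**Figure D3:**
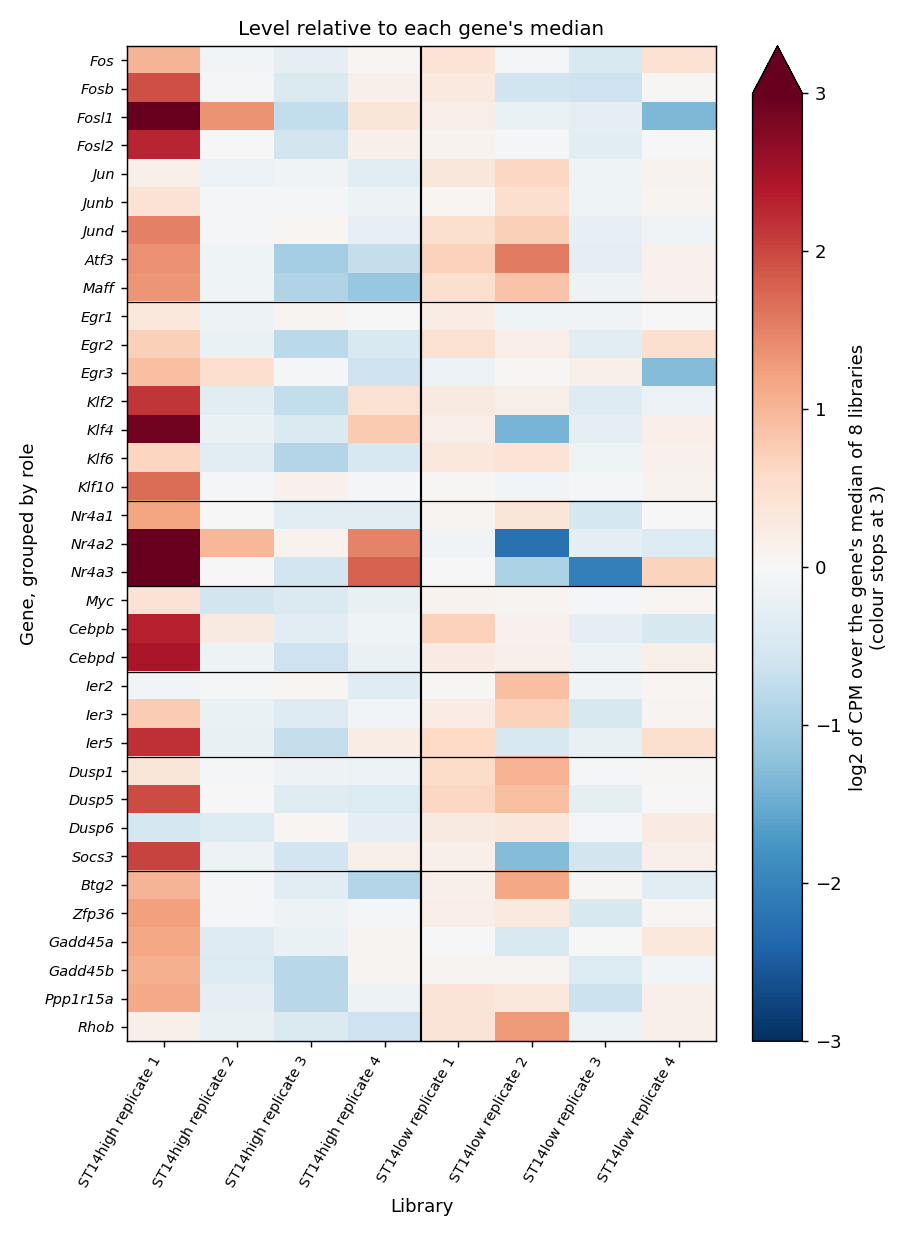
Log2 ratio of each gene's CPM to its own median over the 8 libraries, with genes in rows and libraries in columns (ST14high left of the vertical line, ST14low right of it). The column of ST14high replicate 1 is red in most rows, with Ier2 and Dusp6 below their medians, and that of ST14low replicate 2 is red for Atf3, Btg2, Rhob, Dusp1 and Ier2 and blue for Nr4a2, Klf4 and Socs3.

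Among the genes highest in ST14low replicate 2, Dusp1 and Btg2 were also 2 of the 4 genes (with Maff and Ppp1r15a) that hold a complete CRE, TGACGTCA, in their promoter window. Dusp5 holds 2 CArG boxes, the site that SRF binds. Among the 7 libraries other than ST14high replicate 1, Dusp5 was highest in ST14low replicate 2. So were 15 genes in all, among them Maff, with a complete CRE, and Zfp36, with a CArG box. Ppp1r15a, with a complete CRE, was then highest in ST14low replicate 1, and Egr2, with a CArG box, in ST14low replicate 4. A link between sites and the order of libraries was not tested. Dusp1 and Btg2 hold no CArG box, and Dusp5 no complete CRE. The windows are printed for these differences in sites: Dusp1 chr17:26508473-26508722 (minus strand), Btg2 chr1:134079156-134079405 (minus strand) and Dusp5 chr19:53528895-53529144 (plus strand), all in GRCm38.p6 from RefSeq, the 250 bases before the start, with CArG boxes, CREs and TGACG cores in capitals.
Dusp1: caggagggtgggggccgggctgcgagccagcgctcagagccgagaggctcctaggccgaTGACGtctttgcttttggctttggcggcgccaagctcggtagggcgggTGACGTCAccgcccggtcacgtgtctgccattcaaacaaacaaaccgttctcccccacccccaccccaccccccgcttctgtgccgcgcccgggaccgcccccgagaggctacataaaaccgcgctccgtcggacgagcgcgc
Btg2: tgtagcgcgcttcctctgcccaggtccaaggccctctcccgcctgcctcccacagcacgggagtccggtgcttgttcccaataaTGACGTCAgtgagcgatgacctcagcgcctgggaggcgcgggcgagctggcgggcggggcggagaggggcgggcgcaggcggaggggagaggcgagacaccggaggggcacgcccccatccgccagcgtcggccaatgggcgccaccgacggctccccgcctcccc
Dusp5: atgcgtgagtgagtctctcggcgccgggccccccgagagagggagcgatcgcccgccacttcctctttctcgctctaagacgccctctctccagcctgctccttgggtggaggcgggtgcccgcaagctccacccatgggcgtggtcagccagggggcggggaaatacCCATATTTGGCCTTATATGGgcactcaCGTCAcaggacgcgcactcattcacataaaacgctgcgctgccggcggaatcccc
In the Dusp5 window the 2 CArG boxes stand side by side, and the single TGACG core follows them on the other strand.

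Over the set, 28 of the 35 genes matched an entry of the RefSeq promoter table, in 34 windows of 250 bases before to 50 after a start, since Egr2 and Maff have several starts. Fosl1, Egr1, Egr3, Klf10, Myc, Cebpd and Ier2 had no entry used here. On either strand, the TGACG core, which also lies inside every complete CRE, was in a window of 16 of the 28 genes, against 23.0% of all 27025 genes. The complete CRE was in 4 (2.03% of all genes) and the CArG box in 3, Egr2, Dusp5 and Zfp36 (1.81% of all genes). The EGR site GCGTGGGCG was in 1, Maff (0.707% of all genes), and the AP-1 site TGAGTCA in 0 (5.95% of all genes). Only exact matches inside these windows were counted. A gene without a match, such as Fos for the CArG box, may therefore hold the site farther from its start or with other letters. Of the 8 genes highest in ST14low replicate 2, Dusp1 and Btg2 held a complete CRE, Junb and Atf3 a TGACG core alone, Jun, Dusp6 and Rhob none of these letters, and Ier2 had no entry.

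EdgeR called 0% of all genes, so no gene of the surrounding pathways was called in it. Of 38 upstream regulators (receptors, RAS and MAP kinases, SRF, ternary complex factors, CREB and relatives), 37 were tested. In edgeR 0 passed in either direction, also unadjusted at p under 0.05 (6.89% of all genes higher and 2.68% lower). DESeq2 called 0 of them (1.62% of all genes higher and 0.103% lower). Their median log2 fold change was 0.053, and -0.014 without ST14high replicate 1. Atf4 was at 610.3, 275, 229 and 365 CPM in ST14high replicates 1 to 4 and at 376, 422, 249.8 and 354 CPM in ST14low replicates 1 to 4. Atf4 is a factor of the integrated stress response, and its populations overlapped (edgeR adjusted p = 0.949). Mapk3, the gene of ERK1, averaged 253 ± 69.1 CPM over ST14high and 226 ± 53 CPM over ST14low libraries, and Met, the receptor of hepatocyte growth factor, averaged 211 ± 24.4 and 211 ± 13.1 CPM (mean ± SD, n = 4). The smallest unadjusted p-values were those of Mapk11, Mef2d and Braf, with log2 fold changes of 0.88, 0.35 and 0.53 (edgeR adjusted p = 0.561, 0.562 and 0.566).

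Of 50 other early response genes, 46 were tested and 0 passed in edgeR in either direction, with 2 higher and 2 lower at an unadjusted p under 0.05 (6.89% and 2.68% of all genes). DESeq2 called 0 of them (1.62% of all genes higher and 0.103% lower). The median log2 fold change of the 46 genes was 0.27, and -0.25 without ST14high replicate 1. In edgeR 11 then had lower and 0 higher values at an unadjusted p under 0.05 (3.65% and 6.05% of all genes). DESeq2 then called 1, Dusp2 (1.45% of all genes higher and 0.592% lower), a phosphatase gene named here because it was that call. Cyr61 was at 2066, 2208, 2198 and 1784 CPM in ST14high replicates 1 to 4 and at 3541, 5510.4, 2446 and 2513 CPM in ST14low replicates 1 to 4. Cyr61, a matricellular protein and a target of both SRF and YAP, was the most abundant. ST14high replicate 2, at 2208 CPM, lay under ST14low replicate 3, at 2446 CPM, so the populations did not overlap. Of all genes tested, 2.33% were separated with ST14high below. Its log2 fold change was -0.76 (SE 0.26, edgeR adjusted p = 0.398) and -0.76 without ST14high replicate 1. Errfi1, an inhibitor of EGF receptors, had a log2 fold change of -0.48, Hes1, a Notch target repressor, -0.52, and Klf5 1.12 (edgeR adjusted p = 0.518, 0.481 and 0.455). Of these 46 genes, 31 were highest in ST14high replicate 1, as were 23.0% of all genes.

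All 13 chaperone genes listed for tissue dissociation were tested. In edgeR 0 passed (0% of all genes), also unadjusted at p under 0.05 (6.89% of all genes higher and 2.68% lower). DESeq2 called 0 of them (1.62% of all genes higher and 0.103% lower). Their median log2 fold change was 0.2, and -0.11 without ST14high replicate 1, and 9 of the 13 were highest in that library, as were 23.0% of all genes. Hsp90ab1, a constitutive HSP90, averaged 1335 ± 131 CPM over ST14high libraries and 1213 ± 208 CPM over ST14low libraries. Dnajb4 and Bag3, co-chaperones of HSP70, followed: Dnajb4 averaged 166 ± 29.4 against 180.0 ± 34.7 CPM, and Bag3 127 ± 50.9 against 109.9 ± 17.5 CPM. The smallest unadjusted p-values were those of Hsp90aa1, Hspd1 and Hspe1, with log2 fold changes of 0.33, 0.17 and -0.26 (edgeR adjusted p = 0.609, 0.649 and 0.686). The 13 genes summed to 1782 to 2863 CPM over the 8 libraries, where the 35 immediate early genes summed to 20965 to 42191 CPM.

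**Figure D4:**
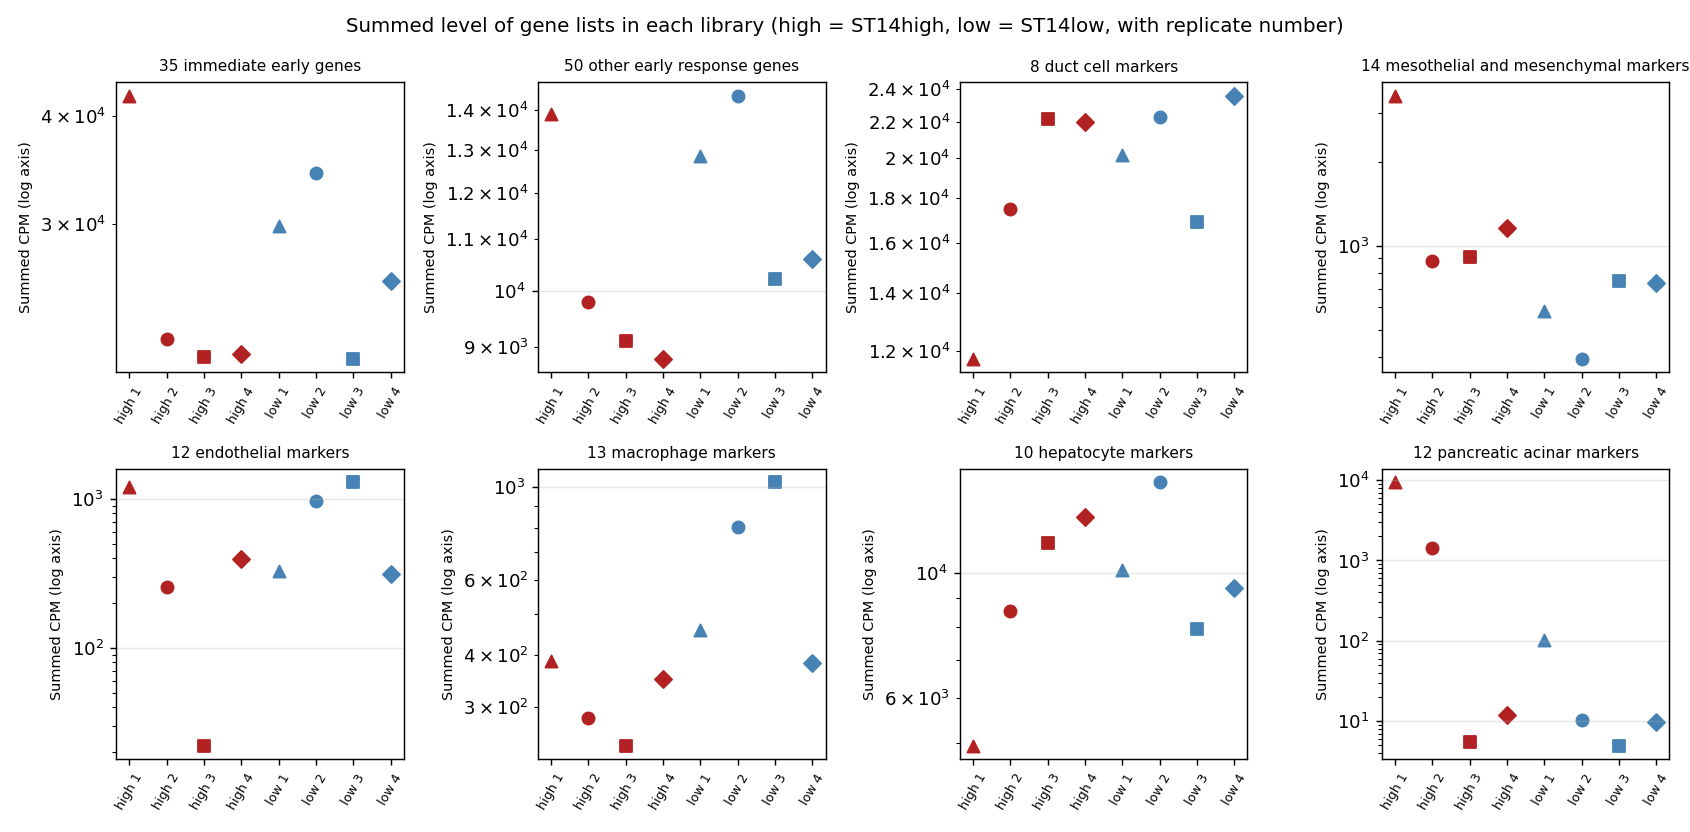
Summed CPM, on log axes, of the immediate early genes, of other early response genes and of marker lists of 6 cell types in each library (red ST14high, blue ST14low, 1 point per library). ST14high replicate 1 has the highest immediate early and acinar sums, 42191 and 9415 CPM, and the lowest duct marker sum, 11755 CPM.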

How the data were processed

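Raw counts of 8 RNA sequencing libraries were compared between ST14high and ST14low, 4 each, grouped by the sorted population in the labels. Sorted cells went into TRIzol and libraries came from the TruSeq v2 kit, per the labels' protocols. The submitters' processing notes name Bowtie 1.0.0, CASAVA 1.8.2 and the build mm9. No source used here gives the counting program or its strand setting, so reads of overlapping genes on opposite strands cannot be told apart. The authors deposited, per RefSeq transcript, an unnormalized read count and an RPKM value; the deposited RPKM, corrected for transcript length and depth, served only to order levels of different genes. For each of 20377 symbols the transcript with the most counts was kept (2 of the 35 genes had several).

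EdgeR 4.0.16 (quasi-likelihood test, TMM, filterByExpr) was fitted on the whole table in R 4.3.3, with two-sided p-values adjusted over all 13749 genes (Benjamini-Hochberg, threshold 0.05). Alternatives were DESeq2 1.42.0, limma 3.58.1 (voom with quality weights), other scalings, no filter, the replicate number as a block, the longest transcript and each library left out in turn; DESeq2 without ST14high replicate 1 was added after seeing the data. For SDs of log2 CPM, 0.5 CPM was added. The procedure was tested on simulated data. The members and lists were chosen with earlier results of these data known. Named were all 35 genes, St14 and, of 3 further lists, the genes past the threshold or else the 3 of highest mean CPM and the 3 of smallest unadjusted p. The duct marker list was shortened to 8 genes, and 2 listed first are not reported here. Promoters were printed, and Dusp2 named, after values were seen. Python 3.11.15 with numpy 2.4.6, pandas 2.3.3 and matplotlib 3.10.9 made summaries and plots.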

Additional observations from a re-analysis of the deposited data

Results flagged for a closer look

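In ST14high, replicate 1 lay so far above the other 3 libraries that its gap to the next exceeded Dixon's 95% critical share of the group's range for 15 of the 35 genes: Fosb (4775 CPM), Fosl1 (89.6 CPM), Fosl2 (567 CPM), Junb (2025 CPM), Jund (1141 CPM), Klf4 (361 CPM), Klf10 (319 CPM), Nr4a1 (1176 CPM), Nr4a2 (31.3 CPM), Cebpb (94.9 CPM), Cebpd (56.4 CPM), Ier5 (291 CPM), Dusp5 (167 CPM), Socs3 (471 CPM) and Zfp36 (2368 CPM). It did so for the sum of the 35 genes as well, at 42191 CPM against 21090.3 to 22122 CPM. In ST14low the same held only for Ier2 in replicate 2, at 1711 CPM. Of 72 groups of 4 libraries examined, 17 stood out. The criterion was applied to CPM without logs, and how many of the 17 stand out on log2 CPM was not counted. A chance rate of about 1 in 20 holds for normally distributed values, which these CPM were not shown to be. The genes of 1 library are also not independent, so 17 of 72 cannot be judged against that rate. The share of all genes past this criterion was not counted, so the excess is not shown to be particular to these genes. ST14high replicate 1 was highest of the 8 libraries in 23.0% of all genes. It was over 2 times the median of the other 7 in 13.4%. Acinar, mesothelial and endothelial marker sums of ST14high replicate 1 are given with the results, and their part was not tested.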

How the results depend on the processing

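EdgeR called 0 genes and 0 of the 35 under plain library sizes, DESeq2's size factors, no low-count filter, the longest transcript and with each library left out; limma's voom also called 0. DESeq2 called 234 genes and 1 of the 35, or 283 and 3 without ST14high replicate 1. The median log2 fold change of the 35 genes was 0.24 with all libraries, -0.066 in voom, and ranged from -0.28 without ST14high replicate 1 (-0.29 in DESeq2) to 0.40 without ST14high replicate 3 when edgeR left out 1 library. Genes whose populations did not overlap numbered 1 with all libraries and 1 to 6 with 1 library left out: 6 without ST14high replicate 1 (11.8% of all genes, in either direction), 3 without ST14high replicate 3 (10.8%) and 3 without ST14low replicate 3 (12.8%), where all libraries gave 6.42%. With the replicate number as a block, 2 genes were called and 0 of the 35, and the median was 0.10. Same-numbered libraries did not deviate together (correlations of -0.12 to 0.052 across genes). No ST14high library, and of ST14low only replicate 2, correlated best with its own number. Such weak correlations cannot show whether libraries share animals or sort days, which the labels do not give. Log2 fold changes turned negative for Dusp5 (-0.035) and Ppp1r15a (-0.082) under the block, and in voom for Fos (-0.066), Egr1 (-0.037), Klf2 (-0.058), Cebpd (-0.28), Ier5 (-0.32), Dusp5 (-0.15), Gadd45a (-0.28), Gadd45b (-0.17), Ppp1r15a (-0.15). When edgeR left out 1 library, 17 genes kept their sign in each fit and 18 did not, 12 of these only without ST14high replicate 1. Their ranges, with DESeq2's value without that library where it also changed sign, were Fos (-0.22 to 0.27, -0.24 in DESeq2), Fosl2 (-0.048 to 1.24, -0.064 in DESeq2), Junb (-0.24 to 0.034), Jund (-0.34 to 0.42, -0.36 in DESeq2), Maff (-1.04 to 0.018), Egr1 (-0.030 to 0.14, -0.046 in DESeq2), Klf2 (-0.12 to 1.11, -0.14 in DESeq2), Nr4a1 (-0.22 to 0.43, -0.24 in DESeq2), Cebpb (-0.13 to 1.17, -0.14 in DESeq2), Cebpd (-0.43 to 1.11, -0.45 in DESeq2), Ier3 (-0.41 to 0.10), Ier5 (-0.35 to 0.95, -0.37 in DESeq2), Dusp5 (-0.65 to 0.52, -0.66 in DESeq2), Btg2 (-0.74 to 0.13), Zfp36 (-0.11 to 0.46, -0.13 in DESeq2), Gadd45a (-0.15 to 0.47, -0.17 in DESeq2), Gadd45b (-0.28 to 0.42, -0.29 in DESeq2) and Ppp1r15a (-0.49 to 0.26, -0.51 in DESeq2). Klf10 changed sign only in DESeq2 without that library (-0.013). The cause of these changes was not tested. Depth limits Nr4a3, Nr4a2, Egr3 and Fosl1, with 579 to 1959 counts over all libraries.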
